A study of Mus musculus with 22 samples.

Results

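Lhpp, Aldh3a2, Ces2b, Adgrv1 and Slc13a3 are 5 genes picked because their measured RNA was lower in adult mouse livers knocked out for Tcf7l2 than in control livers. They are 5 of 28034 genes on the array and were read by 11 probes. The genes were chosen by the measured values of their falls in adult knockouts, so those falls are given as description without a test. No threshold was part of the choice. What the choice did not use is whether newborn livers express the 5 genes and whether they differ between newborn knockouts and wild types.

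Liver RNA was hybridised to 2-colour Agilent arrays, 1 array per mouse, with Cy3 on the liver RNA and Cy5 on a Stratagene mouse reference RNA that was shared by all 22 arrays. All mice were C57BL/6. The newborn knockouts carried Tcf7l2-/- (TCF4KO in the labels, n = 4) and the newborn wild types Tcf7l2+/+ (n = 4). The pups of both groups had 50 ul of 10% glucose under the skin and gave liver 5 h after birth. The adult knockouts, named LTCF4KO, carried Tcf7l2loxp/loxp;SA-CreERT2, a floxed allele with a Cre recombinase that tamoxifen activates, and the controls carried Tcf7l2loxp/loxp without Cre. Adults of both genotypes, controls included, received tamoxifen at 3 weeks of age and were used 1 to 2 months later, either fasted for 24 h (4 knockouts, 4 controls) or fed (3 knockouts, 3 controls). The labels do not state the cell type in which SA-CreERT2 is active, and they call the mice of a group biological replicates.

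Tcf7l2 encodes TCF4, a transcription factor that works with beta-catenin at the end of the Wnt pathway. In adult liver, Wnt signals from the central vein set the gene expression of the hepatocytes around it, such as glutamine synthesis, while hepatocytes near the portal vein run urea synthesis and gluconeogenesis. Lhpp encodes a phosphatase that acts on phosphohistidine and pyrophosphate. Aldh3a2 encodes the fatty aldehyde dehydrogenase, and Ces2b a carboxylesterase of the Ces2 cluster. Adgrv1, named Gpr98 in the files, encodes a very large adhesion receptor known from the Usher protein complex of hair cells and photoreceptors. Slc13a3 encodes a sodium-coupled transporter that takes up dicarboxylates such as succinate.

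Promoters are shown because the 5 genes were lower together in adult knockouts and the factor encoded by Tcf7l2 binds a known DNA word. The RefSeq promoter table (build GRCm38.p6) held 3 of the 5 genes, and Lhpp and Ces2b had no entry there. Each sequence runs 5′ to 3′ on the minus strand and is the 250 bases before the gene's start, at chr11:61267187-61267436 for Aldh3a2, chr13:81633145-81633394 for Adgrv1 and chr2:165473198-165473447 for Slc13a3. Capitals mark CTTTG, the core of the TCF word.
Aldh3a2: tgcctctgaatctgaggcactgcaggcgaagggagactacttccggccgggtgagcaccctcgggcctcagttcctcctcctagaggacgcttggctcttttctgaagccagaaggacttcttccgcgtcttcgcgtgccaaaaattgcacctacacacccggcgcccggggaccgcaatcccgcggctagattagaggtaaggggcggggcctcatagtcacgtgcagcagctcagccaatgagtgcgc
Adgrv1: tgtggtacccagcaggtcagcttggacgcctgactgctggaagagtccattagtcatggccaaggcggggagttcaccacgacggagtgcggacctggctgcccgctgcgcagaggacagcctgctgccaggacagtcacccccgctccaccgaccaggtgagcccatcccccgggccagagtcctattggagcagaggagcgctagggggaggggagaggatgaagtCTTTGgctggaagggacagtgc
Slc13a3: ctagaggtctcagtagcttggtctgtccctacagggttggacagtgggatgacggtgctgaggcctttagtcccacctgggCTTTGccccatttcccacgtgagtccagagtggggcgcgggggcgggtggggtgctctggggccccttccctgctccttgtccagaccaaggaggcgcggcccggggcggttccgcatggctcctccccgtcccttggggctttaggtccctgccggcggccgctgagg
The full words searched on both strands, 4 in number, were the core followed by any pair of bases made of A and T, so each contains the core. None of them stood in the 3 promoters, against a full word in 14.8% of 32851 promoters of the same length. The core stood in the Adgrv1 window 18 to 22 bases before the start and in the Slc13a3 window 165 to 169 bases before it, and not in the Aldh3a2 window. It was present in 48.6% of all promoters. A match is a description of these letters, and these windows are short.

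Apart from spot brightness, single channels and summed marker levels, values are log2 ratios of liver over reference RNA. A difference of 1 between groups is thus 2-fold. These ratios compare groups for 1 probe and do not rank genes. Between 49.5% and 63.8% of liver-channel probes were well above background on newborn arrays, 49.6% to 61.3% on fasted arrays and 22.5% to 30.8% on fed arrays, so dim probes were measured least well in fed livers. Hepatocyte markers (Alb, Apoa1, Ttr, Serpina1b, Tat, Fgb) were well above background on all 22 arrays. The brightest of 3 Tcf7l2 probes read -1.85 to -1.57 in newborn knockouts and -1.28 to -0.32 in newborn wild types, a change of -0.87 ± 0.19 (SE, limma adjusted p = 0.0583). The same probe changed by 0.35 ± 0.17 in fasted knockouts (adjusted p = 0.486) and by 0.21 ± 0.20 in fed knockouts (adjusted p = 0.999), which is not a fall. The part of Tcf7l2 removed is not stated, a probe outside it checks nothing, and adult genotypes rest on the labels. Newborn knockouts lay on slide 2 and newborn wild types on slide 1, so genotype and slide cannot be told apart there, and age and feeding state also differ by slide. Fasted knockouts 2 and 3 stood apart: 5 genes of pancreatic enzymes read 2.72 to 5.11 on them, against -0.97 to 0.80 on the other 6 fasted arrays, and the fasted values of the 5 genes and the fasted calls of other lists are given with and without them.

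The levels of the 5 genes fell into 3 patterns. In adult livers Lhpp, Aldh3a2 and Ces2b were lower in knockouts than in controls whether fasted or fed. The size of the fasted Ces2b fall depended on the processing. Adgrv1 had lower knockout means in both states, but its fasted groups overlapped and the sign of that fall turned with the processing. Slc13a3 was lower in fasted knockouts, while no fed array measured it. In newborn livers all 5 genes were read well above background, Adgrv1 on all arrays but wild type 1. Ces2b and Adgrv1 were dim there. Their brighter probes read 193 to 225 and 114.5 to 225.5 units in newborn wild types, before background correction. An Adgrv1 probe that was well above background on no array read 110 to 125 units in that group. None of the 5 genes passed the threshold of 0.05 between newborn knockouts and wild types, where 1.4% of 17139 genes did. Lhpp, Aldh3a2, Ces2b and Adgrv1 were lower in newborn wild types than in adult controls, and for Slc13a3 the direction against fasted controls turned with the processing. These are whole livers, in which fewer cells of a type and less RNA per cell cannot be told apart.

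**Figure D1:**
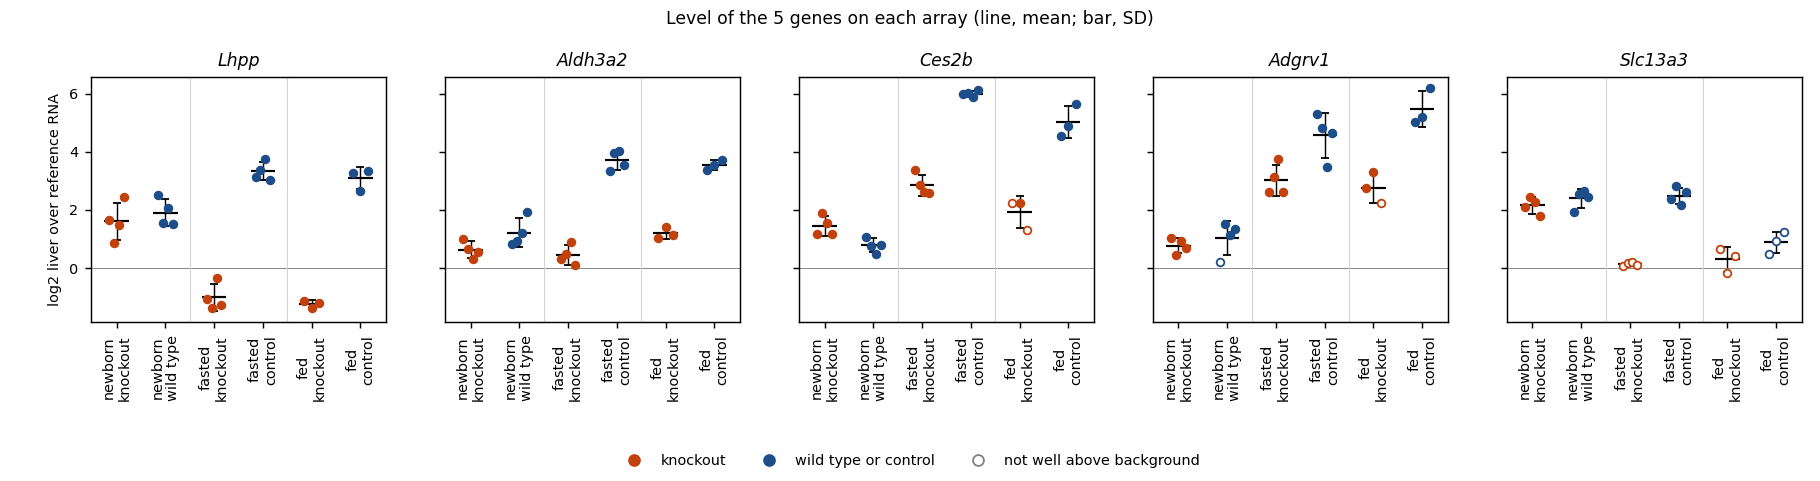
Each point is the log2 ratio of liver over reference RNA on 1 array for the brightest probe of each gene. Lines are group means, bars are SD, and hollow points were not well above background in the liver channel. Lhpp lies at or below -0.33 on every adult knockout array and at or above 0.88 on every newborn array, while Slc13a3 is hollow on all fed arrays and all fasted knockout arrays.

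Lhpp was read by 1 probe (mm9 chr7:139898005-139898064, plus strand), well above background on all 22 arrays. It read -1.07, -1.38, -0.33 and -1.25 in fasted knockouts, against 3.15, 3.39, 3.74 and 3.03 in fasted controls. In fed livers it read -1.14, -1.38 and -1.19 in knockouts, against 3.28, 2.67 and 3.34 in controls. Every adult knockout was far below every adult control in either feeding state. The fall was -4.33 ± 0.23 (SE) fasted, which is 20.2-fold and rank 2 among the falls of 17147 genes, and -4.33 ± 0.27 fed, which is 20.1-fold and rank 1. On the 2 slides of the fasted set the change was -4.49 and -4.17, and on those of the fed set -4.54 and -4.19. Without fasted knockouts 2 and 3 it was -4.49.

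In newborns Lhpp read 1.66, 0.88, 1.47 and 2.44 in knockouts, against 2.5, 1.54, 2.06 and 1.52 in wild types. The groups overlapped, and the change of -0.29 ± 0.33 did not pass (adjusted p = 0.808). From high to low, the group means ran from fasted controls (3.33) and fed controls (3.09), through newborn wild types (1.90) and newborn knockouts (1.61), to fasted knockouts (-1.01) and fed knockouts (-1.24). Each of these pairs of neighbours overlapped within itself, and the 3 pairs were separate from each other.

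Aldh3a2 was also read by 1 probe (mm9 chr11:61058257-61058290, minus strand) that was well above background on all 22 arrays. Fasted knockouts read 0.32, 0.48, 0.91 and 0.11, against 3.35, 3.95, 4.03 and 3.53 in fasted controls. Fed knockouts read 1.04, 1.41 and 1.15, against 3.36, 3.55 and 3.73 in fed controls. The adult genotypes did not overlap in either feeding state. The fall was -3.26 ± 0.19 fasted (9.55-fold, rank 6) and -2.35 ± 0.22 fed (5.09-fold, rank 16), and within slides it was -3.25 and -3.26 fasted and -2.13 and -2.49 fed. Whether the fall differed between feeding states was not tested, since falls in adults chose the gene.

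The newborn values of Aldh3a2 were 1.00, 0.66, 0.30 and 0.56 in knockouts, against 0.83, 0.93, 1.20 and 1.92 in wild types. Knockout 1 lay above wild types 1 and 2, and the other 3 knockouts lay below all wild types. The change was -0.59 ± 0.24, with an unadjusted p of 0.0358 in limma and an adjusted p of 0.323. Newborn knockouts (mean 0.63) and fasted adult knockouts (0.46) overlapped, as did newborn wild types (1.22) and fed adult knockouts (1.20), and all 4 of these groups lay below every adult control array.

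Ces2b appears in the files as BC015286 and was named through its accession. The brighter of its 2 probes (mm9 chr8:107362421-107362480, plus strand) was well above background on 20 arrays, and the other (chr8:107360214-107360403, plus strand) on 17. The brighter probe read 3.37, 2.85, 2.63 and 2.57 in fasted knockouts, against 5.98, 6.01, 5.90 and 6.11 in fasted controls. It read 2.25, 2.24 and 1.30 in fed knockouts, where only knockout 2 was well above background, against 4.55, 4.90 and 5.64 in fed controls. The genotypes were separate in both feeding states, with falls of -3.15 ± 0.26 fasted (8.86-fold, rank 8) and -3.10 ± 0.30 fed (8.59-fold, rank 5). Within slides the fall was -2.89 and -3.41 fasted and -2.31 and -3.97 fed. When outlying local backgrounds were left in place, the fall was -0.78 fasted and -3.17 fed. The fed fold rests in part on knockout signals not well above background.

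The dimmer Ces2b probe read 0.90, 1.05, 0.87 and 1.00 in fasted knockouts, against 3.99, 3.15, 3.14 and 3.30 in fasted controls, a change of -2.44 ± 0.27. In fed livers it was well above background in no knockout and in 1 of 3 controls, averaged 1.09 in knockouts and 1.95 in controls with overlapping ranges, and is given no fold. Both probes were thus lower in fasted knockouts, by unequal amounts. The Ces2 genes resemble each other in sequence, and cross-hybridisation between them was not tested.

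In newborns Ces2b was on the other side of 0. Its brighter probe read 1.19, 1.90, 1.55 and 1.18 in knockouts, against 1.07, 0.76, 0.49 and 0.81 in wild types. All 4 knockouts lay above all 4 wild types, an arrangement found in that direction for 5.75% of 17139 genes and in the lower direction for 3.66%. The change was 0.68 ± 0.19 (1.60-fold, unadjusted p = 0.00508 in limma) and did not pass over all genes (adjusted p = 0.119). The dimmer probe read 1.03, 1.11, 1.20 and 1.08 in knockouts, against 0.88, 0.62, 0.77 and 0.79 in wild types, again without overlap, with a change of 0.34 ± 0.10. The reference RNA did not vary between arrays, yet 18.2% of genes differed in that channel between the newborn groups, and the brighter Ces2b probe differed by 0.38 ± 0.12 (adjusted p = 0.059). The part of this in the newborn change of Ces2b was not tested.

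**Figure D2:**
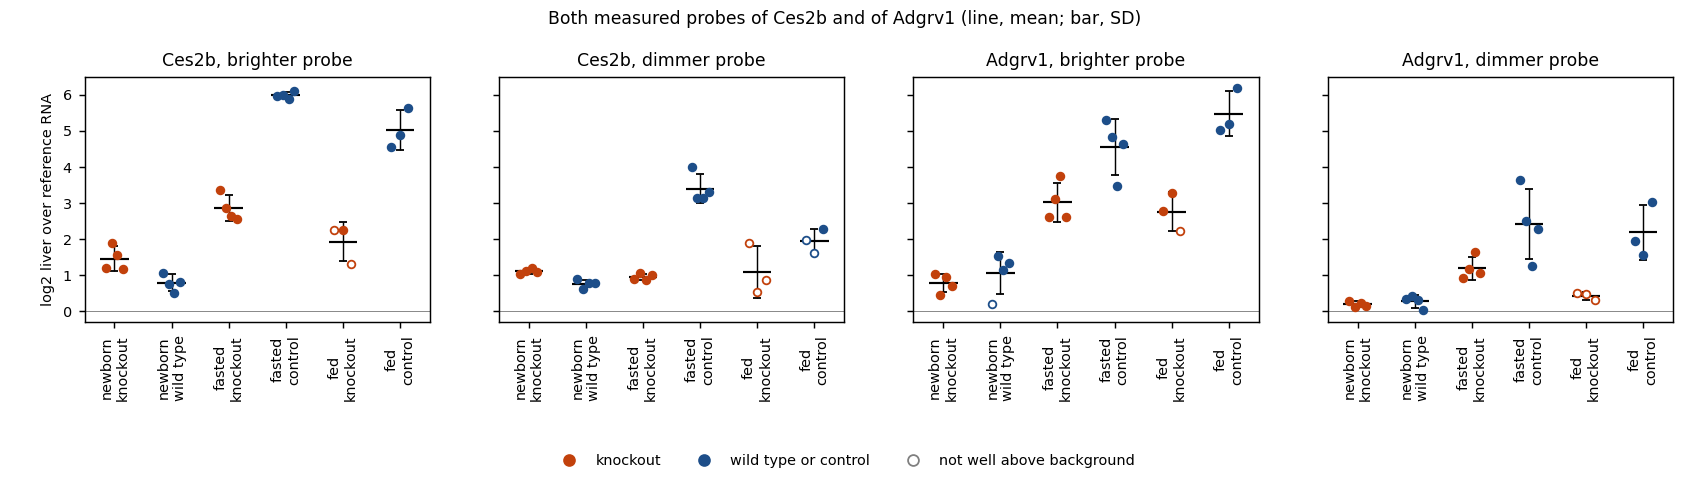
Each point is the log2 ratio of liver over reference RNA on 1 array for the brighter and the dimmer measured probe of Ces2b and of Adgrv1. Lines are means, bars are SD, and hollow points were not well above background. For both Ces2b probes the 4 newborn knockouts lie above the 4 newborn wild types, and for both Adgrv1 probes fasted control 3 lies among the fasted knockouts.

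Adgrv1 was covered by 6 probes, of which 4 (mm9 chr13, minus strand, from 81620397 to 81716845) were well above background on none of the 22 arrays and gave no measured level. The brighter of the other two (chr13:81234330-81234389) was well above background on 20 arrays and the dimmer (chr13:81409792-81409851) on 19. These lie at lower coordinates, which on the minus strand is toward the 3′ end of the gene.

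The brighter Adgrv1 probe read 2.62, 3.12, 3.75 and 2.61 in fasted knockouts, against 5.31, 4.83, 3.47 and 4.64 in fasted controls. Knockout 3 was above control 3, so the groups overlapped, and the dimmer probe put the same pair in the same order, at 1.64 in knockout 3 and 1.26 in control 3. The fasted fall was -1.54 ± 0.40 (2.91-fold, rank 46), with -2.20 ± 0.50 on slide 3 and -0.88 ± 0.50 on slide 4, which held control 3 and knockout 3. Without fasted knockouts 2 and 3 it was -1.95. When outlying local backgrounds were left in place, it turned to 0.84 ± 0.73.

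In fed livers Adgrv1 read 2.77, 3.29 and 2.23 in knockouts, the last not well above background, against 5.04, 5.19 and 6.19 in controls. The groups were separate, and the fall was -2.71 ± 0.46 (6.56-fold, rank 7). On the dimmer probe the 3 fed knockouts were not well above background and the 3 controls were, and the level in knockouts was at least 2.88-fold lower. For such a bound the liver-channel mean of the brighter group was set against, on each array of the dimmer group, the higher of the probe's own value and the lowest signal among probes well above background. In newborns the brighter probe read 1.02, 0.44, 0.94 and 0.71 in knockouts, against 0.20, 1.52, 1.14 and 1.34 in wild types, of which wild type 1 was not well above background. The groups overlapped, and the change was -0.27 ± 0.27 (adjusted p = 0.767). The dimmer probe changed by -0.07 ± 0.11 there.

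Slc13a3 was read by 1 probe (mm9 chr2:165231321-165231380, minus strand), well above background on 12 arrays: the 8 newborn arrays and the 4 of fasted controls. It read 0.07, 0.19, 0.21 and 0.12 in fasted knockouts, all not well above background, against 2.38, 2.81, 2.17 and 2.61 in fasted controls. The groups were far apart, with a measured difference of -2.35 ± 0.19 that rests on knockout signals not well above background, and no fold is given. With median centring in place of loess it was -0.80. On fed arrays it read 0.65, -0.17 and 0.43 in knockouts, against 0.50, 0.94 and 1.23 in controls. No fed array had it well above background, so no fold is given for fed livers.

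In newborn livers Slc13a3 read 2.10, 2.45, 2.29 and 1.79 in knockouts, against 1.94, 2.56, 2.67 and 2.46 in wild types. The groups overlapped, with a change of -0.25 ± 0.19 (adjusted p = 0.68). Fasted controls (mean 2.49), newborn wild types (2.41) and newborn knockouts (2.16) overlapped in the order of their levels, and every array of these 3 groups lay above every fed array.

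The reference channel of the Slc13a3 spot moved with the liver channel. Its median brightness before background correction was 99 to 106 units in fasted knockouts and 168 to 244 units in fasted controls, where the liver channel read 55 to 63 units in knockouts and 208 to 358.5 units in controls. Of 17147 genes 0.0233% passed in the reference channel between fasted knockouts and controls, in either direction and with Slc13a3 included. After normalization the reference channel of this probe was lower by -3.64 ± 0.28 (log2) in fasted knockouts (limma adjusted p = 0.000172), although the reference RNA was the same. In fed knockouts it differed by -2.19 ± 0.33 (adjusted p = 0.117) and in newborn knockouts by -0.16 ± 0.55 (adjusted p = 0.89). Between newborn wild types and fasted controls it was higher in newborns by 1.66 ± 0.43 (adjusted p = 0.0031). The ratio leaves out any shift that both channels share. The liver channel alone gave -7.08 for the fasted fall, with knockout signals not well above background. Why the channels moved together was not tested. For Lhpp, Aldh3a2, Ces2b and Adgrv1 the reference channel differed between fasted knockouts and controls by -0.36, -0.16, -0.10 and -0.53, and none of these passed.

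**Figure D3:**
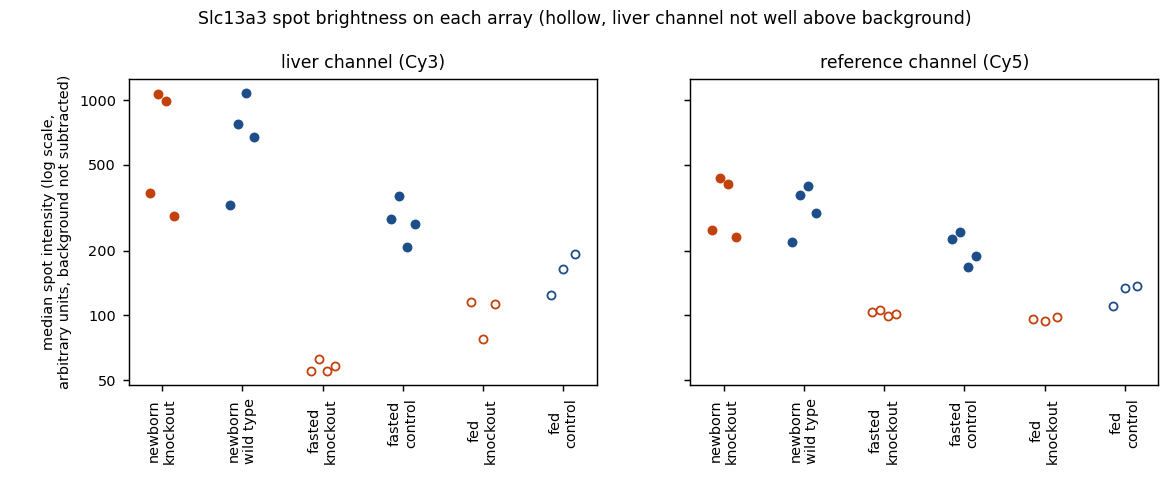
Each point is the median brightness of the Slc13a3 spot on 1 array (log axis, arbitrary units, background not subtracted), in the liver channel on the left and in the reference channel on the right. Hollow points were not well above background in the liver channel. Reference brightness is 99 to 106 units on the fasted knockout arrays and 168 to 244 units on the fasted control arrays.

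Counted together, the ranges of knockouts and controls were separate and lower in knockouts for 4 of the 5 genes fasted and for 4 of the 5 fed, where 3.5% and 4.22% of all 17147 genes had such ranges. Adgrv1 overlapped fasted and Slc13a3 overlapped fed. Over all genes 0.472% passed in fasted and 0.222% in fed knockouts. Since these contrasts chose the 5 genes, nothing is read from those counts. The fasted and fed falls come from different mice and different controls. Without fasted knockouts 2 and 3 the fasted falls were -3.49 for Aldh3a2, -3.03 for Ces2b and -2.40 for Slc13a3, beside -4.49 for Lhpp and -1.95 for Adgrv1 given above. In newborn knockouts 0 of the 5 genes passed in limma, 2 of 5 had an unadjusted p under 0.05 (Aldh3a2 and Ces2b), and 2273 of 17139 genes did. Whether the knockout change of a gene differed between newborns and adults was not tested, because the adult side chose the genes.

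**Figure D4:**
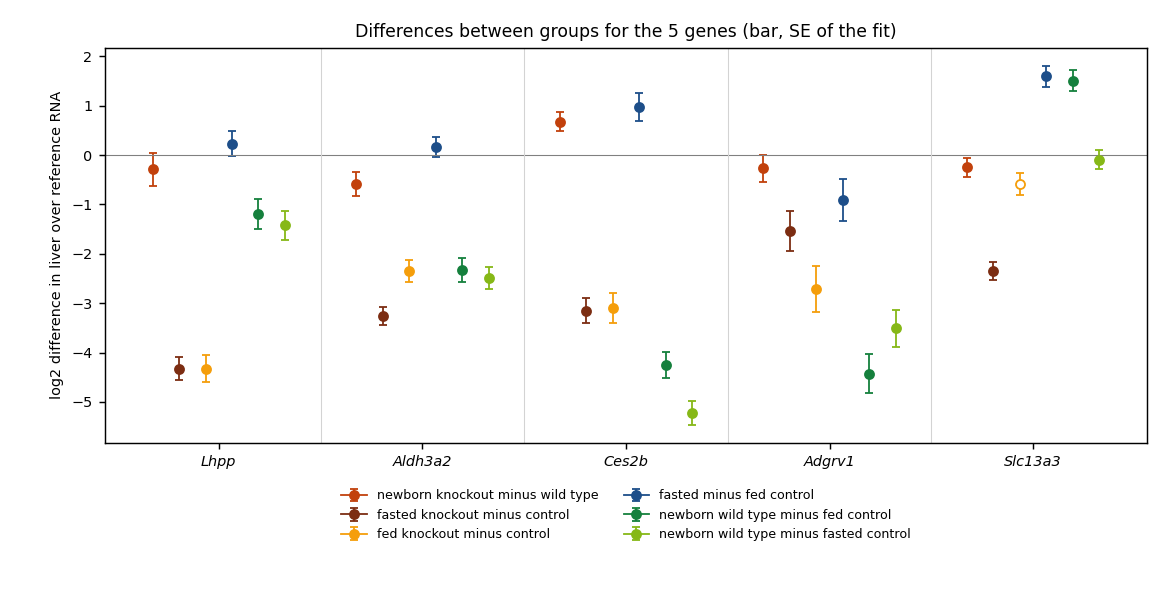
Points are log2 differences between groups and bars are the SE of the limma fit, for each of the 5 genes in 6 comparisons. The hollow point marks Slc13a3 in fed livers, where neither genotype was well above background. Knockout changes in newborns lie between -0.59 and 0.68, while those in adults reach -4.33 for Lhpp.

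The newborn arrays did not form tight groups. Wild type 1 and knockouts 1 and 4 stood apart from the other 5 newborn arrays on the axis that held 45.4% of the variance. Without these 3 arrays, a choice made after seeing the data, Ces2b was higher in knockouts by 1.04 ± 0.15 and passed (adjusted p = 0.0435), and 156 genes passed in place of 240. Lhpp, Aldh3a2, Adgrv1 and Slc13a3 did not pass there either. With each newborn array left out in turn, none of the 5 genes passed.

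Fasting changed 36.8% of 17147 genes in control livers. Of the 5 genes, Ces2b and Slc13a3 passed as higher in fasted controls. Ces2b averaged 6.00 ± 0.09 in fasted controls and 5.03 ± 0.56 in fed controls (SD, n = 4 and 3), a difference of 0.97 ± 0.28 (SE, adjusted p = 0.0162). That call was lost with fed control 1 left out (0.73, adjusted p = 0.084), with fed control 2 left out (0.90, adjusted p = 0.0553) and in the deposited ratios (0.59, adjusted p = 0.461), and the sign turned with the marked local backgrounds kept (-1.40) and in the liver channel alone (-0.26, where the median of all genes was -0.49). Slc13a3 averaged 2.49 ± 0.28 in fasted controls and 0.89 ± 0.36 in fed controls, which were not well above background. Among adult arrays Slc13a3 was well above background only in fasted controls, so it was tested only through the group where it was high. No support is read from its p-value here. Its difference was 1.60 ± 0.21 (adjusted p = 0.000132), at least 1.45-fold, and it did not pass with the marked backgrounds kept (0.28, adjusted p = 0.712). Lhpp (0.23 ± 0.25, adjusted p = 0.49), Aldh3a2 (0.17 ± 0.20, adjusted p = 0.549) and Adgrv1 (-0.91 ± 0.43, adjusted p = 0.114) did not pass. Adgrv1 passed as lower in fasted controls with the marked backgrounds kept (-3.29, adjusted p = 0.0111) and in the liver channel alone (-2.55, adjusted p = 0.000835). With median centring Lhpp (0.93, adjusted p = 0.00929) and Aldh3a2 (0.86, adjusted p = 0.00766) passed as higher. The reference channel itself differed between fasted and fed controls for 75.2% of genes. The control arrays also entered the contrasts that chose the genes, and fasted and fed arrays lay on different slides, so feeding state and slide cannot be told apart.

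Between newborn wild types and fed controls 57.7% of 18884 genes passed, and between newborn wild types and fasted controls 55.6%. All 5 genes passed in the first of these comparisons and all but Slc13a3 in the other. The adult control arrays used here also entered the contrasts that chose the genes. The p-values of these comparisons are therefore not independent of that choice. Ces2b was lower in newborn wild types, at 0.78 ± 0.23 (SD, n = 4), than in fed controls by -4.25 ± 0.26 (SE, adjusted p = 2.37e-11) and than in fasted controls by -5.22 ± 0.24 (adjusted p = 2.08e-13). Adgrv1, at 1.05 ± 0.59 in newborn wild types, differed by -4.43 ± 0.40 from fed controls (adjusted p = 8.27e-09) and by -3.51 ± 0.37 from fasted controls (adjusted p = 7.02e-08). The dimmer probes gave smaller differences, of -1.19 and -2.64 for Ces2b and of -1.92 and -2.15 for Adgrv1 against fed and fasted controls. Aldh3a2 was lower in newborns by 2.33 to 2.49 and Lhpp by 1.19 to 1.42 on the log2 scale, which put Lhpp nearest to its adult control level of these 4 genes. Slc13a3 was higher in newborn wild types, at 2.41 ± 0.33, than in fed controls by 1.51 ± 0.22 (adjusted p = 5.27e-06, at least 2.51-fold), and differed from fasted controls by -0.09 ± 0.20 (adjusted p = 0.736). No fed array had Slc13a3 well above background, so it entered this fit only through newborn arrays and fasted controls, where it was high. No support is read from its p-value against fed controls. The liver channel alone put Slc13a3 higher in newborn wild types than in fasted controls (1.1, adjusted p = 0.00693), and the deposited ratios put it lower (-0.53, adjusted p = 0.011).

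Some of these age calls were lost under other processing. Lhpp against fed controls did not pass with median centring (-0.51, adjusted p = 0.134). With the marked backgrounds kept, neither Slc13a3 against fed controls (1.13, adjusted p = 0.0874) nor Adgrv1 against fasted controls (-1.40, adjusted p = 0.109) passed. The reference channel differed between newborn wild types and fed controls for 64.3% of genes and against fasted controls for 58.5%, and for Adgrv1 it was lower in newborns by -2.33 ± 0.34 (adjusted p = 1.23e-05) and -0.94 ± 0.31 (adjusted p = 0.0147). The part of this in the age differences was not tested.

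Newborn livers also held other cells. Summed marker levels are log2 sums of the liver channel alone, scaled to each array's upper quartile, and are not ratios to the reference. Fed arrays had fewer probes well above background, so this scale can differ between feeding states. Summed neutrophil markers were at 9.20 to 9.79 in newborn wild types and at -0.38 to 1.36 in fasted and 0.29 to 0.61 in fed controls, and all 5 markers were well above background in the newborns. Summed erythroid markers were at 7.35 to 8.09 in newborn wild types, 4.27 to 4.67 in fasted controls and 5.28 to 5.70 in fed controls. Their part in the age differences of the 5 genes was not tested. Between newborn knockouts and wild types the 6 hepatocyte markers changed by -0.22 to 0.00 and none passed. All 6 Kupffer cell (resident macrophage) markers were below 0 there with a median of -0.69, and 5 had ranges separate from those of wild types. Marco, a scavenger receptor gene of these cells, fell by 1.34 ± 0.17 (adjusted p = 0.00843), and the other 5 did not pass. Their summed level was 5.47 to 6.23 in newborn knockouts and 6.34 to 7.26 in newborn wild types. All 5 endothelial markers (median -0.69) and all 4 stellate markers (median -0.47) were also below 0, and none of them passed. The part of these cells in the newborn changes of the 5 genes was not tested.

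The adult falls were accompanied by those of some pericentral hepatocyte genes. Of 9 tested markers of these cells 6 fell in fasted knockouts and 3 in fed knockouts, and none rose. Among all tested genes 0.472% passed in fasted, 0.222% in fed and 1.4% in newborn knockouts. Ornithine aminotransferase, encoded by Oat, fell by 3.86 ± 0.23 fasted (adjusted p = 9.94e-07), and the glutamate transporter gene Slc1a2 by 3.90 ± 0.18 (adjusted p = 2.53e-07). Glul, the gene of glutamine synthetase, changed by -2.94 ± 0.31 (adjusted p = 0.000313). Cyp2e1 (-0.54 ± 0.14, adjusted p = 0.142), Gulo (0.18 ± 0.12) and Cyp1a2 (0.06 ± 0.16) of the same list did not pass in fasted knockouts. The summed level of all 10 markers on the array was 6.70 to 7.68 in fasted knockouts and 8.44 to 8.99 in fasted controls, and 6.48 to 6.88 in fed knockouts and 8.89 to 9.33 in fed controls. Without fasted knockouts 2 and 3, 5 of the 9 fell, with Oat at -4.01, Slc1a2 at -3.85 and Glul at -3.24. None of 7 tested periportal markers passed in fasted or fed knockouts. In fed knockouts all 7 were above 0, with a median of 0.53 beside 0.02 for all genes, and Hal, of histidine breakdown, was at 0.53 ± 0.10 (adjusted p = 0.0625) and the urea cycle gene Cps1 at 0.95 ± 0.18 (adjusted p = 0.0678). Their summed level was 10.78 to 10.94 in fed knockouts and 10.20 to 10.44 in fed controls, and 9.80 to 10.21 in fasted knockouts and 9.30 to 9.75 in fasted controls. In newborn knockouts 2 of 7 tested pericentral markers fell: Rhbg, an ammonia transporter gene, by 3.03 ± 0.27 (adjusted p = 0.00214) and Gulo, of vitamin C synthesis, by 0.63 ± 0.13 (adjusted p = 0.049). The newborn summed level was 5.53 to 6.36 in knockouts and 6.84 to 7.26 in wild types. The part of these cells in the values of the 5 genes was not tested.

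Genes of the same families as the 5 gave few calls. None of 14 tested carboxylesterases and relatives passed in fasted or fed knockouts, with median changes of 0.05 and 0.28 beside 0.01 and 0.02 for all genes. The member farthest from 0 in fasted knockouts was Ces4a at -0.98 ± 0.44 (adjusted p = 0.437), and Ces1c, Ces1d and Ces2c changed by 0.29, 0.15 and 0.15. In newborn knockouts 1 of 12 fell, Ces1b by 0.67 ± 0.13 (adjusted p = 0.0452), and 11 of the 12 changes were below 0 with a median of -0.33, beside -0.01 for all genes. Aadac, an esterase gene of liver, changed by -0.62 ± 0.18 there (adjusted p = 0.145). The newborn change of Ces2b was above 0 and outside the range of these relatives, which ran from -0.67 to 0.06.

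Of the aldehyde dehydrogenases other than Aldh3a2, 0 of 17 passed in fasted knockouts and 0 of 17 in fed knockouts, and 0 of 18 in newborn knockouts. Their fasted changes lay between -0.26 and 0.38. Examples are Aldh1a2, which makes retinoic acid, at -0.24 ± 0.11, the mitochondrial Aldh2 at -0.22 ± 0.11 and Aldh1b1 at 0.38 ± 0.19. In newborns the smallest adjusted p of the family was that of Aldh1a1 (0.56 ± 0.13, adjusted p = 0.0683). For the fatty aldehyde dehydrogenase gene, fasting gave no call apart from that with median centring (0.86). Of its 17 relatives 9 were lower and 2 higher in fasted than in fed controls, where 36.8% of 17147 genes passed. Aldh18a1, of proline synthesis, was the lowest relative at -3.67 ± 0.28. The same comparison called all 6 hepatocyte markers and 6 of 7 periportal markers lower, and none of either list higher.

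None of 13 phosphatase and phosphohistidine genes related to Lhpp passed in any of the knockout comparisons. Nme1, a nucleoside diphosphate kinase that carries phosphohistidine, changed by 0.43 ± 0.20 in fasted (adjusted p = 0.454) and 0.46 ± 0.17 in newborn knockouts (adjusted p = 0.272). Nme2, its close relative, changed by 0.47 ± 0.14 in newborn knockouts (adjusted p = 0.16), and Pdp1 and Pgp by 0.24 and -0.18 in fasted knockouts. None of 4 tested partners of Adgrv1 in the Usher complex passed, with Cib2 at -0.69 ± 0.18 (adjusted p = 0.149) and Whrn at 0.17 ± 0.20 in fasted knockouts. Among 20 other adhesion receptors 1 fell in fasted knockouts, Adgrg2 by 1.63 ± 0.22 (adjusted p = 0.00363), a call lost without fasted knockouts 2 and 3 (-1.52, adjusted p = 0.0805). It changed by -0.74 ± 0.26 in fed (adjusted p = 0.498) and -0.37 ± 0.17 in newborn knockouts (adjusted p = 0.39).

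Of 8 tested carriers of dicarboxylates and citrate related in function to Slc13a3, 1 fell in fasted knockouts. This was Slc25a21, the mitochondrial oxodicarboxylate carrier gene, at 1.88 in fasted knockouts and 3.58 in fasted controls, a change of -1.69 ± 0.26 (adjusted p = 0.00783). That call was lost without fasted knockouts 2 and 3 (-1.69, adjusted p = 0.101). Slc25a21 was higher in fasted than in fed controls by 1.95 ± 0.28 (adjusted p = 0.000246), a comparison in which 36.8% of genes passed. It changed by -0.88 ± 0.30 in fed knockouts (adjusted p = 0.457) and by -0.38 ± 0.21 in newborn knockouts (adjusted p = 0.51). The citrate carrier gene Slc25a1 changed by -0.31 ± 0.14, Slc25a11 by 0.42 ± 0.14 and Slc22a7 by 0.12 ± 0.17 in fasted knockouts, and none of these passed.

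The neighbours of the 5 genes were examined in gene order, 3 tested genes on each side. Of these 30 genes 1 passed in a knockout comparison, also without fasted knockouts 2 and 3. Oat, 34.2 kb from Lhpp with 1 coding gene between them, averaged -1.15 in fasted knockouts and 2.71 in fasted controls, and -1.45 in fed knockouts and 2.44 in fed controls. Its fed change was -3.89 ± 0.26 (adjusted p = 9.02e-06), and in newborn knockouts it changed by -0.03 ± 0.10 (adjusted p = 0.954). Fam53b on the other side of Lhpp changed by -0.37 ± 0.26 in fasted and -0.13 ± 0.29 in fed knockouts. Lhpp and Oat thus were lower together in adults, and neither passed in newborns.

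Ces2b lies among its relatives. Ces2a, Ces2c, Ces2e and Ces2f were its nearest tested neighbours and changed by 0.12, 0.15, 0.04 and -0.09 in fasted knockouts, by 0.49, 0.24, 0.10 and -0.04 in fed knockouts and by -0.47, -0.40, -0.11 and -0.13 in newborn knockouts. None of these passed. In fasted against fed controls Ces2c was higher (0.51 ± 0.16, adjusted p = 0.0253) and Ces2e lower (-1.06 ± 0.19, adjusted p = 0.00115). Around Slc13a3, fasted controls were higher than fed controls for Ocstamp (0.86 ± 0.17), Trp53rka (0.61 ± 0.15) and Ncoa3 (0.58 ± 0.20) and lower for Slc35c2 (-0.80 ± 0.25). Near Lhpp, Cpxm2 (0.53 ± 0.14), Chst15 (0.75 ± 0.20) and Fam53b (0.95 ± 0.28) were higher in fasted controls, as was Usp22 near Aldh3a2 (0.59 ± 0.17). No neighbour of Adgrv1 passed in fasted against fed controls. Of all 17147 genes 36.8% passed in that comparison, so such calls are frequent. No response of a locus to fasting is read from them.

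**Figure D5:**
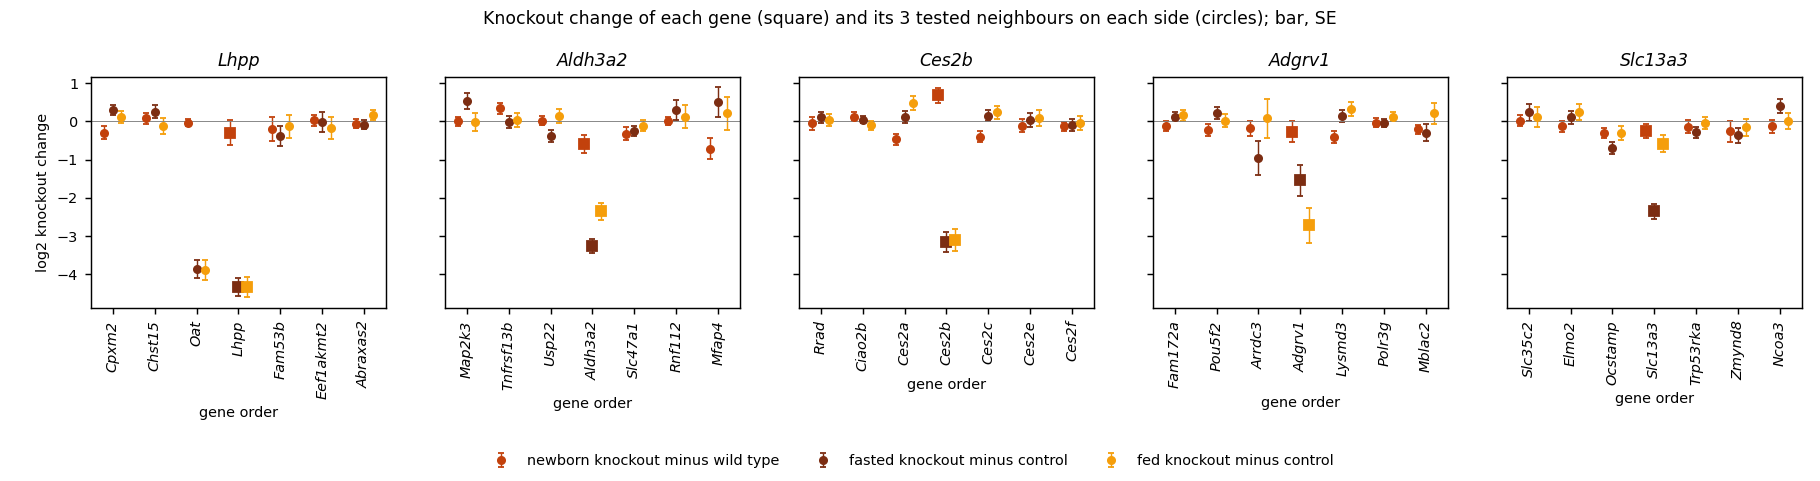
Squares are the 5 genes and circles the 3 tested genes on each side in gene order, which is not to scale. The y axis is the log2 knockout change, bars are SE, and colours give newborn, fasted and fed livers. Apart from the squares, only Oat, next to Lhpp, lies near -3.9 in fasted and fed livers, and the fed square of Slc13a3 comes from signals not well above background.

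The genes most like each of the 5 were taken by the smallest root mean square difference of log2 ratios over the 22 arrays, after each gene's own mean was subtracted, among 16836 genes. Adult and newborn groups, genotype and slide all shape this measure, and it carries no test. For Lhpp these were Glul (0.71), Oat (0.79) and the receptor gene Tnfrsf19 (0.97), where Lhpp itself varied by 1.80 about its mean. Glul was the nearest, yet it averaged 4.14 in newborn knockouts and 4.35 in newborn wild types, close to its 4.54 in fasted controls, whereas Lhpp was lower in newborns than in adult controls.

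For Aldh3a2 the nearest were Pparg (0.65), which encodes a nuclear receptor of lipid storage, Oat (0.65) and the transcription factor gene Tbx3 (0.67). Pparg averaged -0.64 in fasted knockouts and 1.61 in fasted controls, and 0.04 in newborn knockouts and 0.49 in newborn wild types. Slc1a2 (0.61) was nearest to Ces2b, at 1.22 in fasted knockouts and 5.12 in fasted controls and at 0.58 in newborn knockouts and 0.61 in newborn wild types. Next for Ces2b came the probe named Olfr114 (0.66) and an unnamed transcript (0.69).

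The closest to Adgrv1 were Aatk (0.68), 9530039L23Rik (0.77) and Fitm1 (0.77), a gene of lipid droplet formation. Fitm1 averaged 1.65 in fasted knockouts and 3.68 in fasted controls, and 0.22 in both newborn groups. Slc13a3 had Ngb (0.63), the vasopressin receptor gene Avpr1a (0.63) and Sort1 (0.64), the gene of the sorting receptor sortilin, where its own spread was 1.02. Avpr1a averaged 2.88 in fasted knockouts and 4.27 in fasted controls, 1.76 in fed knockouts and 3.21 in fed controls, and 4.03 in newborn knockouts and 4.56 in newborn wild types. It was measured in fed livers, where Slc13a3 was not.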

How the data were processed

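Liver RNA of 22 mice was hybridised to 2-colour Agilent arrays of design 014868, with 1 array for each. Per the file headers, Agilent Feature Extraction 10.5.1.1 quantified the scans with probe positions on mm9, while the submitters' processing notes name 8.5.1.1. Per the file headers, the array files hold spot intensity values without normalization, and the deposited log10 ratio values of reference over liver. The series-wide table that the authors deposited equals those log10 ratios on every array (largest difference 0), so its scale and direction are known.

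From the deposited intensity values, log2 ratios of liver over reference were computed here: normexp background correction on median signals with an offset of 50, local backgrounds marked as outliers replaced by the array's median background, loess within arrays with control spots at weight 0, no step between arrays, marked spots missing, spots of a probe averaged. Of 41174 probes, 32831 were named through RefSeq (GRCm38.p6), used for names and gene order, and 8343 kept their file name. Each gene had its brightest probe. Genes well above background on at least 4 newborn arrays, or 3 adult arrays, were tested.

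Groups were compared with limma 3.58.1 (lmFit, eBayes, two-sided) in R 4.3.3, adjusted by Benjamini-Hochberg over all genes tested, in a newborn fit of 8 arrays, an adult fit of 14 and a fit of all 22. The code was tested on simulated data. P-values measure the spread between these arrays, whose number limits the precision. The members and gene lists were chosen with earlier results of these data known. All 5 members were tested in each fit. Named relatives are up to 4 per list with the smallest adjusted p in fasted and 2 in newborn knockouts, those that passed under fasting included where stated. Neighbours that passed were named, with the Ces2 genes and Fam53b added after their values were seen. Marker lists covered hepatocytes of both zones, Kupffer, endothelial, stellate, bile duct, erythroid, neutrophil, pancreas and fat cells. Same-numbered newborn arrays correlated in their deviations at 0.34 to 0.49 for numbers 1 to 3 and at -0.23 for number 4, and adult ones at -0.10 to 0.15, so numbers were not taken as pairs. Alternatives covered background, scaling, filters, probes, slides and single arrays. Other tools were data.table in version 1.17.8, jsonlite 2.0.0, Python 3.11.15, NumPy 2.4.6, pandas 2.3.3 and matplotlib 3.10.9.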

Additional observations from a re-analysis of the deposited data

Results flagged for a closer look

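The measured knockout changes of Ces2b had opposite signs in newborn and adult livers, although the newborn change did not pass (limma adjusted p = 0.119). The newborn knockout change was 0.68, with all 4 knockouts above all 4 wild types, while in fasted and fed adults all knockouts lay below all controls, by -3.15 and -3.10. In newborns 5.75% of 17139 genes had all knockouts above all wild types, and genotype and slide cannot be told apart there. The reference channel of this probe also differed by 0.38 ± 0.12 between the newborn groups. This opposition of every array met the rule for a closer look, and the difference itself was not tested, since the adult falls chose the gene. No array of a group of 4 lay far enough from the others to be marked by Dixon's test in 27 groups of values, where chance would mark a small share.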

How the results depend on the processing

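With the replicate block none of the 5 genes passed in newborn knockouts, as without it. Their adult knockout changes have no test, and the fasting and age comparisons were not run with that block. Over all genes it gave 333 newborn, 41 fasted and 23 fed calls, against 240, 81 and 38 without it. Not every pair of numbers correlated, so numbers were not used as pairs. Genes called in newborn knockouts numbered 0 with the marked local backgrounds kept, 425 in the deposited ratios (250 higher, 175 lower, against 184 and 56), 103 with median centring, 2303 in the liver channel alone (2147 and 156), 152 when both channels had to be well above background and 156 without wild type 1 and knockouts 1 and 4. Ces2b was the 1 member called in the last of these and the 1 called in the liver channel. Genes called in fasted knockouts numbered 147 with backgrounds kept (118 and 29, against 19 and 62), 126 with slide as a block, 389 within slide 3, 28 within slide 4 and 41 without knockouts 2 and 3. In fed knockouts they numbered 11 with backgrounds kept (0 higher, as in the 33 with median centring, against 5 higher and 33 lower). Each fed slide held 1 array of a genotype, whose spread was taken as that of the other groups: within slide 5 the calls were 16 higher and 30 lower, and within slide 6 they were 69 higher and 36 lower. In fasted against fed controls 3817 genes and 1 of the 5 genes were called with backgrounds kept, 1 in the deposited ratios and 4 with median centring. With backgrounds kept 5578 genes separated newborn wild types from fasted controls. The causes were not tested.

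With arrays left out in turn, calls ran from 59 (without newborn wild type 3) to 405 (without newborn wild type 1), from 58 to 136 (without fasted knockout 4), from 33 to 97 (without fed knockout 3; 69 without fed knockout 1), from 4839 to 5872 in fasting, from 9887 to 10827 in newborns against fed and from 9735 to 10437 against fasted controls. The 5 genes' calls were 0 in newborn knockouts, 1 to 2 in fasting, 5 and 4 in the age comparisons.

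Signs turned for Adgrv1 in newborn knockouts in the liver channel (0.38), in fasted knockouts with backgrounds kept (0.84) and in fasting on the dimmer probe (0.23). They turned for Slc13a3 in fed knockouts in the deposited ratios (0.19), and between newborn wild types and fasted controls with backgrounds kept (0.85), median centring (0.11), the liver channel (1.1, adjusted p = 0.00693), without newborn wild type 1 (0.07) and without fasted control 2 (0.02), with -0.20 to 0.07 over the arrays left out. In fasting they turned with backgrounds kept for Ces2b (-1.40), Lhpp (-0.01) and Aldh3a2 (-0.09), and in the liver channel for Ces2b (-0.26) and Lhpp (-0.47). The median of all genes was 0.06 in fasting, 0.41 in the deposited ratios, 0.26 with median centring and -0.49 in the liver channel, and 0.08, 0.46, 0.33 and -0.44 in newborns against fed controls. Higher calls in fasting were 55.3%, and 35.3%, 81.2%, 71.2% and 23.1% with backgrounds kept, deposited ratios, median centring and liver channel. Between newborn wild types and fed controls they were 56.3%, and 70.5%, 75% and 34.5% under the last 3 of these, and against fasted controls 53.1%, with 65.8% when backgrounds were kept. In fasted knockouts that median was 0.01, and 0.14 with backgrounds kept, and in fed knockouts 0.02, and -0.10 with median centring or the liver channel.

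The fasted falls ran from -4.77 to -4.09 for Lhpp, -3.52 to -3.0 for Aldh3a2, -3.41 to -0.78 for Ces2b and -7.08 to -0.80 for Slc13a3, and the fed falls from -4.75 to -4.19, -2.49 to -2.13 and -4.63 to -0.86 for Lhpp, Aldh3a2 and Ces2b and from -3.73 to -1.76 for Adgrv1. Of 282 alternatives for single genes in tested comparisons 256 kept direction and call, 7 lost the call, 7 gained one and 12 turned the sign. Of 179 for the adult knockout changes, which have no test, 151 moved by less than the spread between arrays, 26 by more and 2 turned the sign. The 4 unmeasured Adgrv1 probes were not run. Low signal limits fed livers most. The newborn set without 3 arrays and the fasted set without knockouts 2 and 3 were chosen after seeing the data.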
